A study of Rattus norvegicus with 24 samples.

Results

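Dorsal thalamus marker genes were followed rat by rat in RNA from blocks of the rostral posterior hypothalamic (rPH) region. The 6 genes, Tcf7l2, Ntng1, Rora, Lef1, Plekhg1 and Synpo2, occupy 7 rows of the 32883 Ensembl genes counted, because Tcf7l2 has the identifiers ENSRNOG00000049232 and ENSRNOG00000013993. The others are ENSRNOG00000031136 (Ntng1), ENSRNOG00000027145 (Rora), ENSRNOG00000010121 (Lef1), ENSRNOG00000016011 (Plekhg1) and ENSRNOG00000014867 (Synpo2). The count table holds no symbols. The rows were chosen by symbol from the study's lists of differentially expressed genes, where all 7 rows were listed for AS versus RS7 and the first Tcf7l2 row and Rora also for C versus RS7. Group differences in those 2 comparisons therefore chose the members and are given as a description only. All 7 rows passed the filter on low counts, and so did 16202 genes in all.

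The animals were adult male Sprague-Dawley rats, 6 per group, and each rat gave 1 library. All were placed daily in sound-attenuating chambers over the same days. The C group had no loud noise (0 exposures), the AS group had 1 loud noise exposure, the RS3 group had 3 and the RS7 group had 7. Blood was drawn after the final session, and brains were taken from all groups in turn on the next morning, 24 h later. The block came from a coronal slice 2.5 to 4.5 mm behind bregma, cut ventrally 0.5 mm below the top of the third ventricle, and the mammillothalamic tracts guided its lateral and dorsal cuts. It was not limited to 1 nucleus, and the position of each cut in each rat is not given in the sources used here. The study dropped 1 rat per group for library quality, here identified as rat 20 (C), rat 18 (AS), rat 8 (RS3) and rat 1 (RS7), so that comparisons rest on 5 rats per group. Of the 20 kept rats, C rats 21 and 22 and RS7 rat 4 stood apart, with 18.8 to 20.3% of counts in their 10 most abundant genes against 12.4 to 14.9% in the other 17. Total counts of kept rats ranged from 8087697 to 16947298 (median 12385781).

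The dorsal thalamus relays sensory and motor signals to the cortex through glutamatergic projection neurons. In the developing and adult brain its neurons are set off from the hypothalamus and from the GABAergic prethalamus by transcription factors that include Tcf7l2 and Lef1, nuclear effectors of canonical Wnt signaling, in which a Wnt ligand stabilizes beta-catenin and beta-catenin then binds these factors on DNA. Rora encodes an orphan nuclear receptor of sensory thalamic neurons, and Ntng1 encodes netrin-G1, a membrane-anchored protein of thalamocortical axons. Plekhg1 encodes a guanine nucleotide exchange factor and Synpo2 an actin-binding protein of the synaptopodin family. Tcf7l2 is also expressed by cells of the oligodendrocyte lineage and in the habenula. None of the 11 oligodendrocyte and none of the 6 habenula genes listed for this purpose had an identifier in the sources used here, so neither could be followed. In a tissue block, fewer cells of a type and less RNA per cell cannot be told apart.

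Because the 7 rows moved together between rats, as described below, the region upstream of their start sites is shown for 4 of the genes. These are the genes of the 3 transcription factors and Plekhg1, which held the only motif match. Sequences are the 250 bases before the start site, 5′ to 3′ on the gene's strand, from RefSeq annotation of GRCr8, a later build than the rn6 build of the counts. They lie at chr1:264791085-264791334 (Tcf7l2, plus strand), chr2:222340463-222340712 (Lef1, plus strand), chr8:78816005-78816254 (Rora, plus strand) and chr1:42754490-42754739 (Plekhg1, plus strand). Capitals mark the only match to a searched motif.
Tcf7l2: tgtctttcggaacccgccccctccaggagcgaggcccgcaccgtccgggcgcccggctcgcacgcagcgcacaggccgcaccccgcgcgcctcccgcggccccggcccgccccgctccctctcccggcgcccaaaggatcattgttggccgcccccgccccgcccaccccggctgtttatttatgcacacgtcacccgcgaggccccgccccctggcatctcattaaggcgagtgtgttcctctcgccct
Lef1: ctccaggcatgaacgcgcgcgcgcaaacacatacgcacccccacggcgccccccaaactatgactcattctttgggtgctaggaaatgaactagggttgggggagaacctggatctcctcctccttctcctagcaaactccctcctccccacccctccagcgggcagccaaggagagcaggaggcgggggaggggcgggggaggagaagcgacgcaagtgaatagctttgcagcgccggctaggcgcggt
Rora: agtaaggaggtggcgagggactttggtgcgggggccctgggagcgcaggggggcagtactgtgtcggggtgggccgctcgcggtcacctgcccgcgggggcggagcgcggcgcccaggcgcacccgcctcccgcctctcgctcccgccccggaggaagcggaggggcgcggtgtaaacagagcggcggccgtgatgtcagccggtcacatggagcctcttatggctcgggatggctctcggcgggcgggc
Plekhg1: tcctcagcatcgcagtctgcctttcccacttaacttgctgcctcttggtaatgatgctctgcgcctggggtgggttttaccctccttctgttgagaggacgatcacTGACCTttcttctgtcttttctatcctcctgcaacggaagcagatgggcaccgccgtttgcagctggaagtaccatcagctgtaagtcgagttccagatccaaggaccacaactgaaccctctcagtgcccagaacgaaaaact

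Motifs were searched on both strands. The TCF/LEF motifs CTTTGAT and CTTTGAA occurred in 0 of the 6 member promoters, against 3.15% and 4.68% of 33465 rat promoters. Those promoters came as windows of 300 bases, 250 before and 50 after the start. The ROR core AGGTCA occurred in 1 of 6, that of Plekhg1, against 14.1% of all. There it lay on the opposite strand, from 144 to 139 bases before the start. CTTTGAT and CTTTGAA differ only in the last letter, so that no site can match both. The promoters of Tcf7l2 and Rora were rich in G and C (73.6% and 74.4%), with 32 and 30 CG pairs, whereas that of Ntng1, not shown, had 44.8% and 11 CG pairs. The median of all promoters was 51.2% and 5 CG pairs. These matches describe the letters of the window and were not tested against the expression values.

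Tcf7l2 was counted mainly under ENSRNOG00000049232. Its levels, in TMM-scaled CPM (counts of a gene relative to the total of its library), were 297, 244, 335, 331 and 327 in C rats 19, 21, 22, 23 and 24. In AS rats 13 to 17 they were 369, 294, 377, 251 and 264. RS3 rats 7, 9, 10, 11 and 12 had 400.2, 419, 361, 270.1 and 369. RS7 rats 2 to 6 had 406, 431, 414, 476 and 414. All 5 RS7 rats lay above every C and AS rat, while RS3 rat 9, at 419 CPM, lay inside the RS7 range and RS3 rat 11 inside the C and AS ranges. The group means were 307 ± 38.1 (C), 311 ± 58.8 (AS), 364 ± 57.4 (RS3) and 428 ± 28.3 CPM (RS7; SD, n = 5 each). The SD was 6.60% of the mean in the RS7 group and 12.4 to 18.9% in the others, a spread that was not compared by a test.

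The second Tcf7l2 row, ENSRNOG00000013993, carried far fewer reads, from 131 to 478 counts per kept rat against 1834 to 7551 for the first. Its mean levels were 18.9 ± 2.31 (C), 18.3 ± 4.42 (AS), 19.3 ± 2.89 (RS3) and 25.5 ± 4.05 CPM (RS7; SD, n = 5 each). The RS7 rats had 20.5, 22.8, 28.9, 30.2 and 24.9 CPM, and the lower values of this group overlapped the C, AS and RS3 ranges. Both rows are annotated as Tcf7l2 in the study's lists, and the handling of reads that fit both is not given in the sources used here, so the split of reads between them is uncertain.

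Lef1 encodes the other Wnt effector of the set. It had 68.7, 60.3, 86.7, 85.5 and 79.4 CPM in the C rats and 76.8, 73.6, 87.2, 57.2 and 63.1 in the AS rats. The RS3 rats had 95.6, 107, 89.5, 59.0 and 79.7 CPM and the RS7 rats 85.2, 103, 102, 124 and 94.5. Only RS7 rat 2 lay among the C and AS rats, and RS3 rat 11 was again the lowest of its group. The means were 76.1 ± 11.4, 71.6 ± 11.8, 86.1 ± 18.1 and 102 ± 14.5 CPM in the C, AS, RS3 and RS7 groups (SD, n = 5 each).

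Rora had the fewest reads of the set, 54 to 325 counts per kept rat. Its SD was 36.6, 26.8 and 24.6% of the mean in the C, AS and RS3 groups, the highest of the 7 rows there, and 11.6% in the RS7 group, where only the first Tcf7l2 row was lower. The C rats had 8.94, 7.19, 18.2, 11.9 and 11.1 CPM, and the AS rats had 12.5, 8.07, 10.5, 6.37 and 7.86. The RS3 rats had 13.9, 19.3, 11.3, 10.7 and 15.7 CPM, and the RS7 rats 16.2, 22.5, 20.4, 20.0 and 20.9. Every RS7 rat exceeded every AS rat, and C rat 22, one of the libraries that stood apart, was the only C rat to reach the RS7 range. The group means were 11.5 ± 4.20, 9.06 ± 2.43, 14.2 ± 3.49 and 20.0 ± 2.33 CPM (C, AS, RS3, RS7; SD, n = 5 each).

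Ntng1, the axonal member, had 232, 194, 252, 247 and 257 CPM in the C rats and 275, 237, 283, 185 and 201 in the AS rats. The RS3 rats had 279.6, 313, 263, 190.5 and 275 CPM, and the RS7 rats 288, 309, 291, 383 and 286. The RS7 rats again lay above every C and AS rat, and RS7 rat 5 lay far above the other 4. The means were 237 ± 25.8, 236 ± 43.3, 264 ± 45.1 and 311 ± 40.9 CPM (C, AS, RS3, RS7; SD, n = 5 each).

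Plekhg1 and Synpo2 are the cytoskeletal members. Plekhg1 ranged from 210.3 to 293 CPM in the C group, 194 to 279 in the AS group, 193 to 328 in the RS3 group and 277 to 386 in the RS7 group, with means of 257 ± 37.2, 231 ± 36.4, 268 ± 51.9 and 315 ± 42.6 CPM (SD, n = 5 each). Synpo2 ranged from 101 to 162 CPM (C), 102 to 143 (AS), 97.5 to 179 (RS3) and 148 to 216 (RS7), with means of 129.8 ± 24.3, 121 ± 19.6, 141 ± 29.7 and 175 ± 26.4 CPM. For both genes the extremes of the RS3 group were rat 11 and rat 9, and those of the RS7 group were rat 2 and rat 5. CPM values of different genes are not compared, because gene lengths were not used here.

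**Figure D1:**
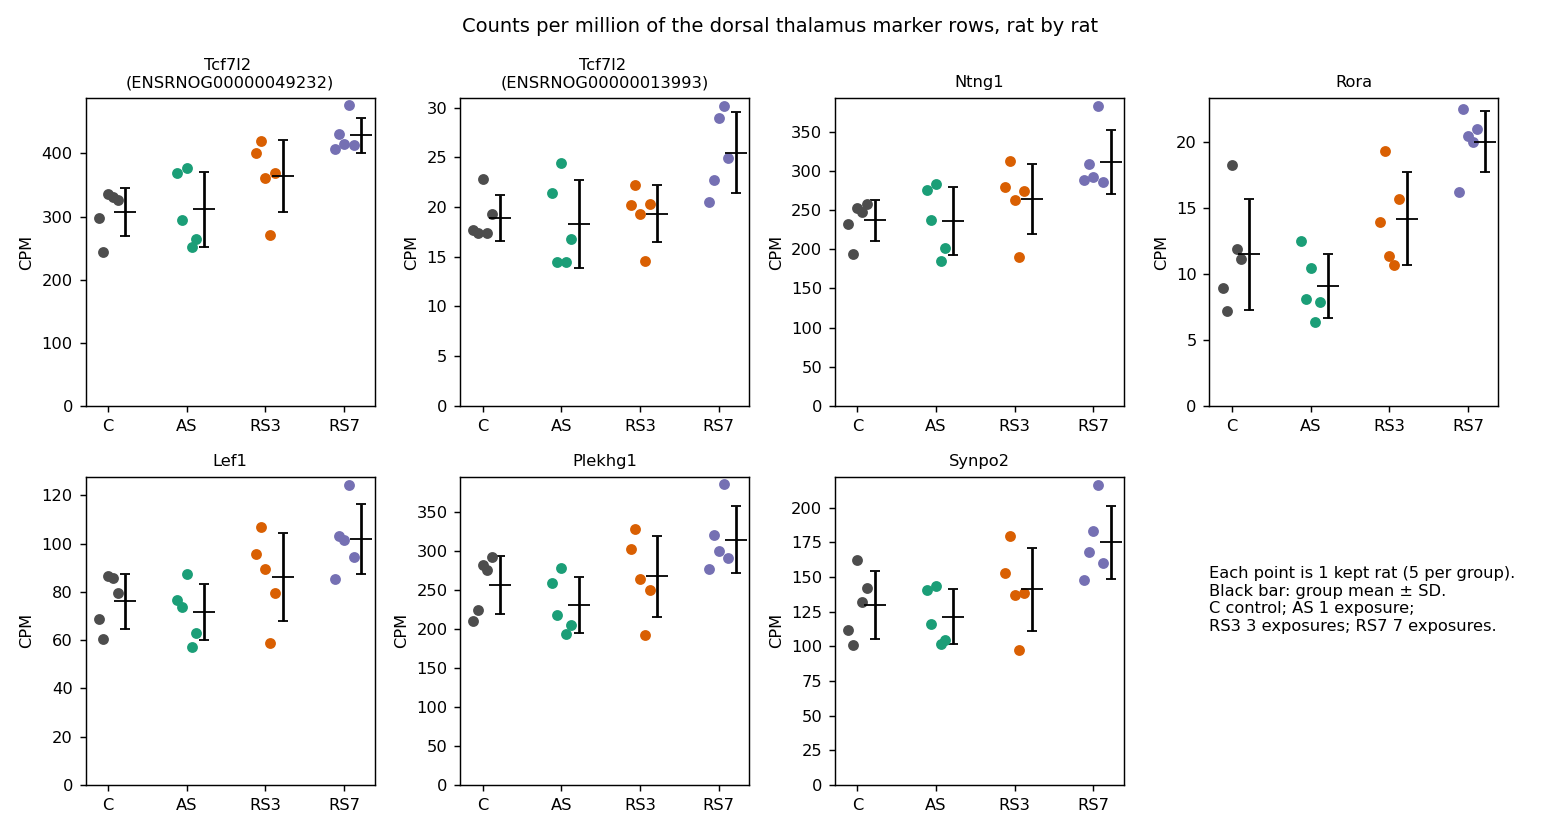
CPM (vertical axis, linear from 0) of the 7 marker rows in each of the 20 kept rats, by group (horizontal axis), with black bars for the group mean ± SD. The RS7 mean was the highest of the 4 groups in each panel, and RS3 was next. The rows were chosen from genes listed as different between AS and RS7.

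The order of the group means was alike in all 7 rows. RS7 was highest and RS3 next in 7 of 7 rows, and AS was lowest in 6, the exception being the first Tcf7l2 row, where C was lowest. All 7 rows were listed for AS versus RS7, so RS7 above AS is part of how they were chosen. The rows also varied together from rat to rat, as described below, so they are not 7 separate observations of this order. The following 4 comparisons did not choose the members, although each shares rats with those that did. Their directions are therefore not independent of that choice.

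Comparing the C and AS groups asks whether a single exposure changed these genes by the next day. The edgeR quasi-likelihood test called 0 of the 7 rows (0% of 16202 genes were called), as did DESeq2 and limma-voom. Without adjustment, 0 rows had a p under 0.05, against 10% of all genes. The log2 fold changes, AS minus C, ranged from -0.34 (Rora, standard error 0.225) to 0.02 (the first Tcf7l2 row, standard error 0.124), with a median of -0.09 against -0.002 over all genes. In 0 of the 7 rows were the AS rats all above the C rats, against 0.512% of all genes. The smallest adjusted p of the 7 rows was 0.602. Without C rat 22, one of the libraries that stood apart, the value of Rora was -0.14. The sign of the small differences in both Tcf7l2 rows and Ntng1 depended on single rats and on the method.

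After 3 exposures all 7 rows had a higher mean than in the C group, and none passed the test. In the C versus RS3 comparison edgeR called 0 of 7 rows (0% of all genes), limma-voom called 0, and 0 rows had a p under 0.05 before adjustment, against 16.3% of all genes. DESeq2 also called 0 (0.648% of the genes with an adjusted p) and gave no adjusted p for the second Tcf7l2 row and Rora. The log2 fold changes ranged from 0.04 (second Tcf7l2 row, standard error 0.146) to 0.31 (Rora, standard error 0.214), with a median of 0.16. The first Tcf7l2 row differed by 0.25 (standard error 0.124, edgeR adjusted p = 0.331). RS3 rats were above C rats in 21 of 25 pairs of rats for this row and in 14 of 25 for Plekhg1. The RS3 rats were all above the C rats in 0 of the 7 rows, against 1.22% of all genes. Without RS3 rat 9, the highest of its group in each row, the second Tcf7l2 row and Plekhg1 turned to -0.02 and -0.03, and Plekhg1 also turned, to -0.01, without C rat 19. Rora was 0.16 without RS3 rat 9 and 0.51 without C rat 22.

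Between the AS and RS3 groups, edgeR called 0 of 7 rows (0% of all genes) and so did DESeq2 and limma-voom, while 1 row, Rora, had an unadjusted p under 0.05, against 4.61% of all genes. DESeq2 called 0.0164% of the genes it gave an adjusted p. Rora differed by 0.65 on the log2 scale (standard error 0.217, edgeR adjusted p = 0.941), and RS3 rats were above AS rats in 23 of 25 pairs of rats. The other 6 rows lay between 0.09 and 0.27. With each rat left out, the second Tcf7l2 row ranged from 0.0113 to 0.204, the first from 0.158 to 0.316 and Ntng1 from 0.0848 to 0.258. Plekhg1 ranged from 0.128 to 0.31, Synpo2 from 0.114 to 0.325 and Lef1 from 0.177 to 0.379. The groups overlapped in all 7 rows, while in 0.383% of all genes every RS3 rat was above every AS rat.

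Between the RS3 and RS7 groups the 7 rows had log2 fold changes from 0.23 (Plekhg1, standard error 0.138) to 0.49 (Rora, standard error 0.199), with a median of 0.24 against -0.004 over all genes. EdgeR called 0 of 7 (0% of all genes), as did DESeq2 and limma-voom, and 2 rows had an unadjusted p under 0.05, against 7.52% of all genes. These were the second Tcf7l2 row (0.40, standard error 0.139, edgeR adjusted p = 0.619) and Rora (edgeR adjusted p = 0.631). In both, RS7 rats were above RS3 rats in 24 of 25 pairs. Complete separation with RS7 above was found in 0 of the 7 rows and in 0.87% of all genes. Leaving out each rat gave log2 fold changes of 0.145 to 0.292 for the first Tcf7l2 row and 0.141 to 0.307 for Ntng1. Lef1 ran from 0.131 to 0.332, Plekhg1 from 0.138 to 0.32 and Synpo2 from 0.205 to 0.416. The second Tcf7l2 row ran from 0.312 to 0.465 and Rora from 0.403 to 0.637.

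In the comparisons that chose the rows, all 7 had higher means in the RS7 group. For AS versus RS7 the log2 fold changes were 0.46 and 0.48 for the Tcf7l2 rows, 0.51 for Lef1, 1.14 for Rora, 0.40 for Ntng1, 0.45 for Plekhg1 and 0.53 for Synpo2, with standard errors from 0.123 to 0.21. EdgeR called 1 of the 7, Rora (1.67% of all genes were called), and all 7 were called by DESeq2 (3.9% of its genes) and by limma-voom (5.36%). Without AS rat 17, edgeR called 0, with Rora at 1.09 (adjusted p = 0.0513). RS7 rats were all above AS rats in 4 rows, the first Tcf7l2 row, Ntng1, Rora and Synpo2, against 2.39% of all genes. For C versus RS7 the log2 fold changes were 0.48 and 0.43 for the Tcf7l2 rows, 0.42 for Lef1, 0.80 for Rora, 0.40 for Ntng1, 0.29 for Plekhg1 and 0.43 for Synpo2. EdgeR called 0 of the 7 (0.148% of all genes) and all 7 had an unadjusted p under 0.05 (17.9% of all genes), while DESeq2 (2.73% of its genes) and limma-voom (1.01%) each called 2, the first Tcf7l2 row and Rora. RS7 rats were all above C rats in 2 rows, the first Tcf7l2 row and Ntng1, against 2.06% of all genes. Comparisons that share a group share its rats, so their values are not independent of each other.

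**Figure D2:**
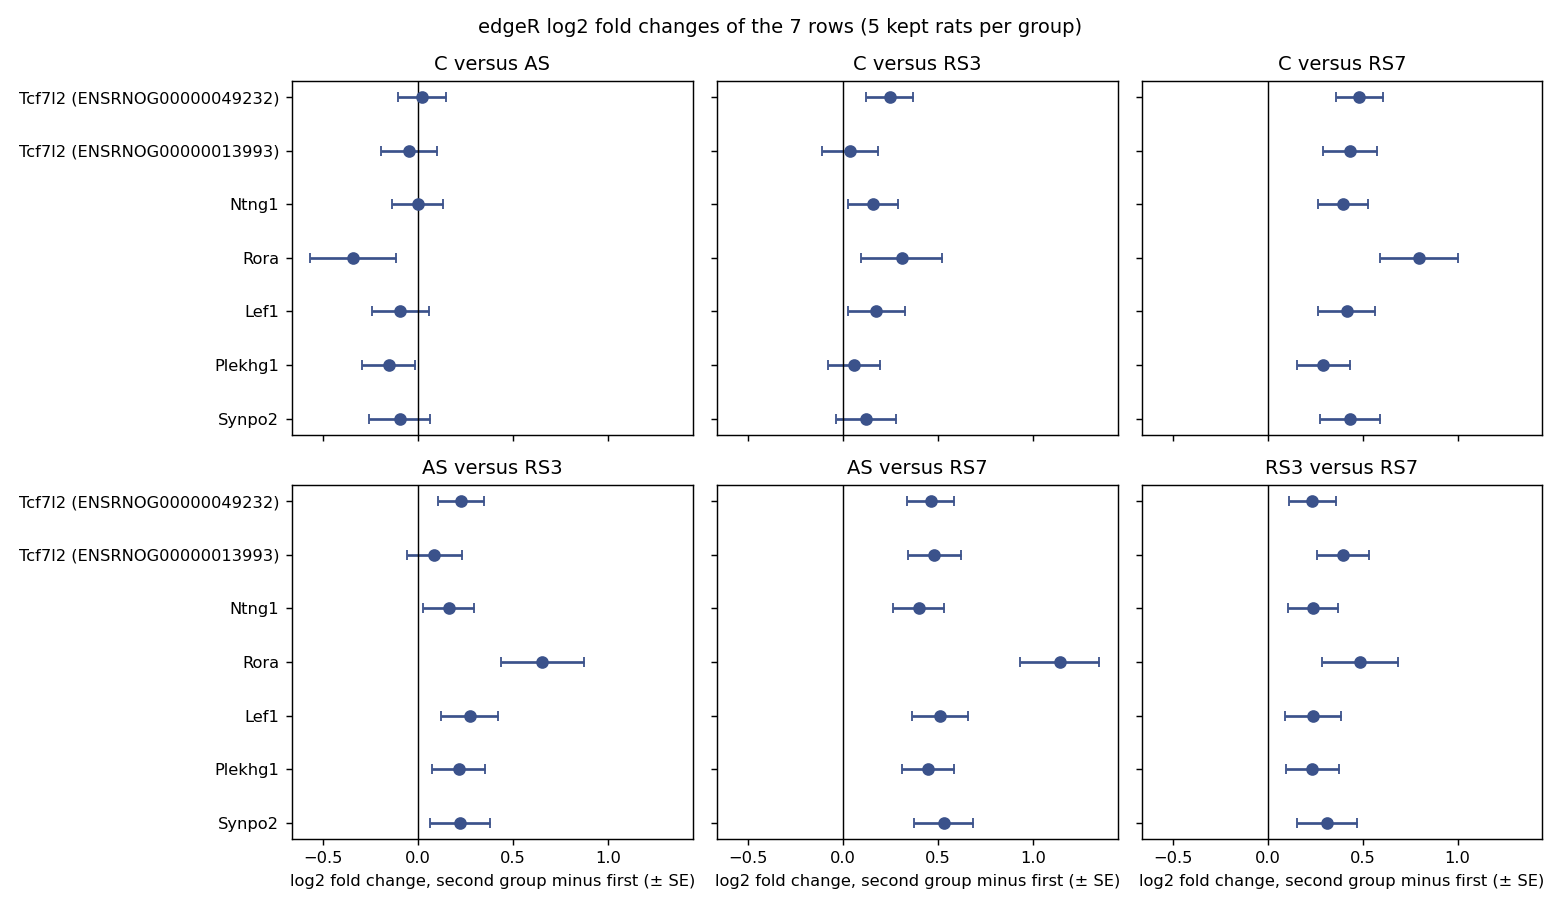
EdgeR log2 fold changes (horizontal axis, second group minus first) of the 7 rows in the 6 comparisons, with bars of 1 standard error. Values for C versus AS lie near 0 except Rora at -0.34, and Rora has the largest value in each comparison that involves a group with repeated exposures.

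The 4 rats that the study left out played no part in choosing the rows. With all 24 libraries scaled together, RS7 rat 1 had 503 CPM of the first Tcf7l2 row, 141 of Lef1, 24.5 of Rora, 369 of Plekhg1 and 237 of Synpo2, each above the highest kept RS7 rat on the same scale (451, 118, 21.3, 365 and 205). It had 358 CPM of Ntng1 and 21.1 of the second Tcf7l2 row, both within the range of the kept RS7 rats. Of the 21 values of the left-out C, AS and RS3 rats, 19 were within the range of the kept rats of their group. The exceptions were in the second Tcf7l2 row, with 7.27 CPM from 19 counts in AS rat 18 and 27.1 CPM in RS3 rat 8. RS7 rat 1 was above C rat 20 and AS rat 18 in 7 of 7 rows and above RS3 rat 8 in 6, and RS3 rat 8 was above C rat 20 and AS rat 18 in 7 of 7. With 1 rat per group there is no test. These libraries had 24.9 to 46.4% of their counts in 10 genes, the part of which in these values was not tested.

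**Figure D3:**
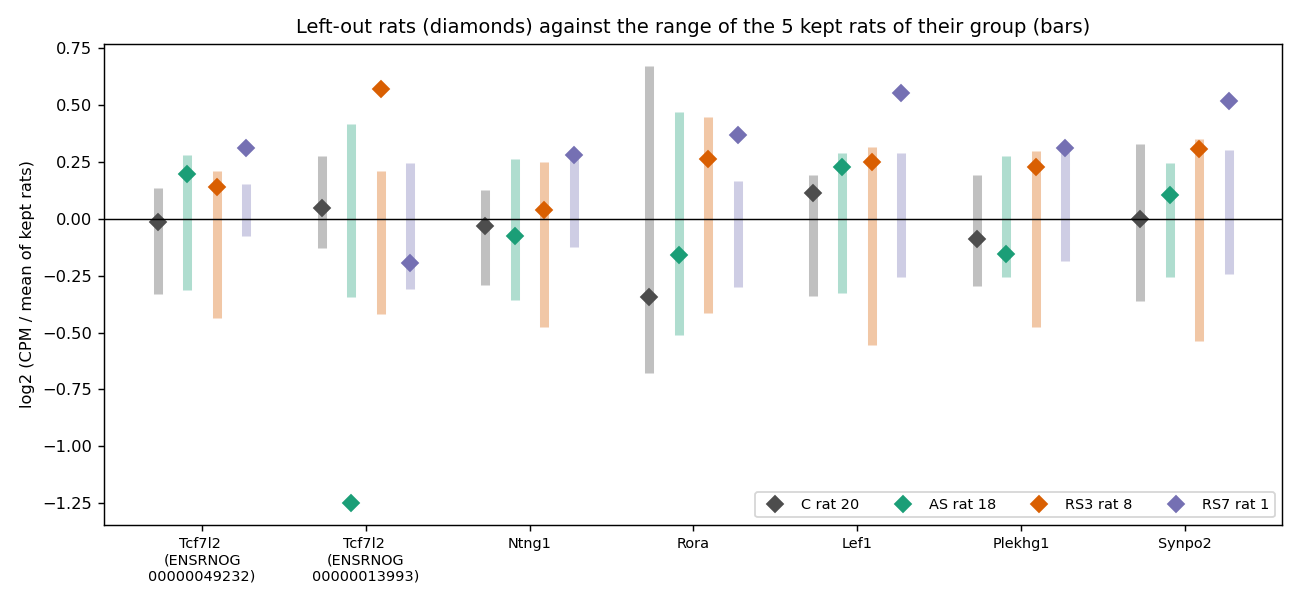
Level of each row in the 4 rats left out (diamonds) as log2 of CPM over the mean of the kept rats of the same group (vertical axis), with bars for the range of those 5 kept rats, all scaled over 24 libraries. RS7 rat 1 lies above its bar in 5 of the 7 rows, and AS rat 18 lies below it for the second Tcf7l2 row.

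Within each group the 7 rows varied together from rat to rat. RS3 rat 11 was the lowest of its group in 7 of 7 rows and RS3 rat 9 the highest in 7 of 7. AS rat 16 was the lowest in 7 of 7 and AS rat 15 the highest in 6. RS7 rat 5 was the highest of its group in 6 rows and RS7 rat 2 the lowest in 6, and in the C group rat 22 was the highest and rat 21 the lowest in 5 rows each. In 13 of the 20 kept rats all 7 rows lay on the same side of their group means, above in 7 rats and below in 6. The mean deviation over the 7 rows ran from -0.44 (RS3 rat 11) to 0.31 on the log2 scale (RS3 rat 9), and in the RS7 group from -0.20 (rat 2) to 0.23 (rat 5).

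**Figure D4:**
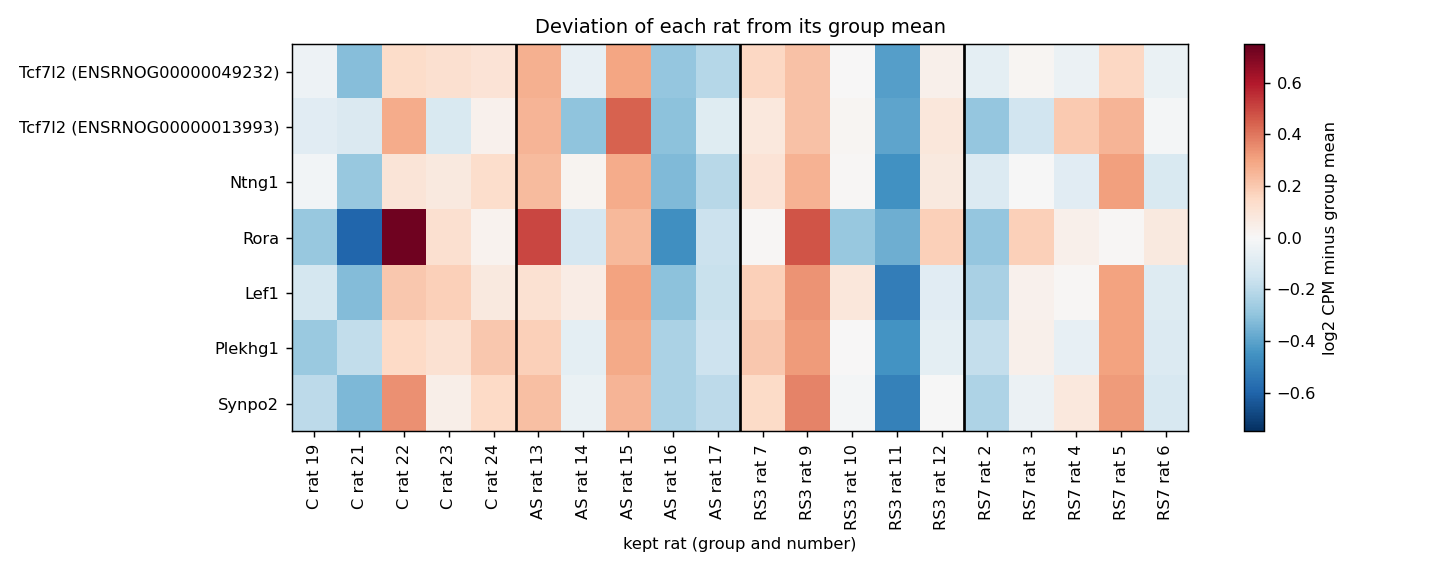
Deviation of log2 CPM from the group mean (colour, red above and blue below) for the 7 rows in each of the 20 kept rats, with black lines between groups. Most columns are of 1 colour, as for RS3 rat 11 (mean deviation -0.44) and RS3 rat 9 (0.31).

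This was measured as the correlation of log2 CPM with group means removed, which leaves out the differences that chose the rows. All 21 pairs of rows had positive correlations past the test (20 rats, Benjamini-Hochberg adjustment over the 21 pairs, 100000 permutations of rats within groups, highest adjusted permutation p = 0.00171). Pearson's r ranged from 0.71 to 0.97 with a median of 0.85, and Spearman's coefficient from 0.69 to 0.95. The share of all pairs of genes past such a test is not given here. Genes outside the set also reached such values, as Cx3cl1 did with the first Tcf7l2 row (r = 0.96). Among the first Tcf7l2 row, Ntng1, Lef1, Plekhg1 and Synpo2 the 10 pairs had r from 0.90 to 0.97 (adjusted permutation p of at most 4.2e-05, where 1e-05 is the smallest unadjusted p these permutations can give). The 6 pairs with Rora had 0.71 to 0.82, and the 6 pairs with the second Tcf7l2 row, including 1 with Rora, 0.71 to 0.85. These are the rows with the fewest reads. The tightest pair was Tcf7l2 with Ntng1 (r = 0.97), followed by Lef1 with Synpo2 (0.95), Lef1 with Plekhg1 (0.94) and Plekhg1 with Synpo2 (0.94). Without the 2 rats farthest from the median of the first gene of a pair, r ranged from 0.68 to 0.96. The count stayed at 21 pairs with any 1 kept rat left out and without C rats 21 and 22 and RS7 rat 4. With all 24 rats it was 19, and the second Tcf7l2 row was in both pairs that no longer passed, its pairs with the first Tcf7l2 row and with Lef1.

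Depth and composition of the libraries were set beside the rows in the same way. Within groups, log2 total counts had r of 0.16 to 0.35 with the 7 rows (Spearman's coefficient 0.07 to 0.27), and the percent of reads taken by the top 10 genes had r of -0.12 to 0.37 (Spearman's coefficient 0.01 to 0.39). None of these 14 correlations passed (lowest permutation p = 0.0573, lowest adjusted permutation p = 0.732). Without the 2 rats farthest in total counts, r was -0.26 to 0.03, and without the 2 farthest in the top-10 share it was 0.03 to 0.42, positive in all 7 rows. With the share in 10 genes removed by regression, all 21 pairs of rows still passed, with a lowest r of 0.71.

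Across all genes the other members stood near the top of those that varied with Tcf7l2. Of 16201 tested genes other than the first Tcf7l2 row, Ntng1 was at rank 2 by Pearson's r within groups, Lef1 at 34, Synpo2 at 38, Plekhg1 at 49, the second Tcf7l2 row at 305 and Rora at 312. The median r of all genes was -0.02, with 5th and 95th percentiles of -0.55 and 0.65. Of the 772 genes with a symbol, the non-members most like Tcf7l2 were Cx3cl1 (r = 0.96), the membrane-bound chemokine fractalkine of neurons, and Syt7 (0.96), a calcium sensor of vesicle fusion. Rims2 (0.95), an active zone protein, Fgf13 (0.94), a modulator of sodium channels, and Pcsk2 (0.94), a prohormone convertase, came next. In this order their ranks among all genes were 3, 5, 8, 17 and 18, ahead of every member but Ntng1. The most opposite were Tmem196 (-0.87), the synaptotagmin Syt6 (-0.81), the tyrosine kinase gene Csk (-0.77), the interleukin 4 receptor gene Il4r (-0.77) and the natriuretic peptide gene Nppa (-0.75). These correlations, over 20 rats, are a description. Symbols were available only for genes that the study listed as different between groups, so the genes named here were drawn from those.

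Lists of genes of the thalamus, of neighbouring regions and of other cell types were set beside the first Tcf7l2 row in the same way. All 61 genes come from the study's lists of genes that differ between these groups. In each list below, neither the direction nor the number of genes called between groups is therefore independent evidence. The shares over all genes printed beside those numbers are not a like background, because all genes were not chosen in this way. Of the 61, 25 had a positive and 6 a negative within-group correlation past the test (adjusted over 61). With all 24 rats these numbers were 16 and 2, and with each kept rat left out they were 19 to 26 (19 without C rat 21 or RS3 rat 11) and 3 to 9 (3 without RS7 rat 5, 9 without RS3 rat 7). The share of all genes past such a test is not given here. Over all genes the 5th and 95th percentiles of r were -0.55 and 0.65. Some list genes that passed, such as Foxp2, Camk4, Cdh6, Wnt2b and Magel2, lay within these percentiles.

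Of the 16 other thalamic neuron genes with an identifier, out of 30 listed, 15 correlated positively with Tcf7l2 (r from 0.55 to 0.93). Whether these genes are limited to thalamic neurons in this block was not tested. Genes outside the lists, Cx3cl1 (0.96), Syt7 (0.96) and Rims2 (0.95), had a higher r than any of them. The strongest were Cck, a neuropeptide gene (r = 0.93, Spearman's coefficient 0.92), Plcb4, a phospholipase of metabotropic glutamate signaling (r = 0.93, Spearman's coefficient 0.94), and Zmat4, a zinc finger gene (r = 0.90, Spearman's coefficient 0.89), each with a permutation p of 1e-05. Lhx9, a LIM-homeobox gene of thalamic neurons, had r = 0.89, Nrn1, the neuritin gene, 0.88 and Epha4, an axon guidance receptor gene, 0.87. The exception was the potassium channel gene Kcna2, with r = 0.44 (adjusted permutation p = 0.137). Cdh6, at r = 0.55, was close to the threshold (adjusted permutation p = 0.0498), and Rorb, at r = 0.66, passed it by Pearson's r but not by Spearman's coefficient (adjusted permutation p = 0.0532).

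Between groups these 16 genes had higher means in the RS7 group than in the AS group in 16 of 16, with a median log2 fold change of 0.40 against -0.01 over all genes, and edgeR called 8 (DESeq2 15, limma-voom 16), against 1.67%, 3.9% and 5.36% of all genes. Because the 16 genes came from the study's DESeq2 lists, these numbers follow in part from how the genes were chosen. EdgeR called 1 of them, Foxp2, in C versus RS7 (median 0.34, DESeq2 11, limma-voom 6, against 0.148%, 2.73% and 1.01% of all genes). It called 0 in the other 4 comparisons, as did limma-voom, while DESeq2 called 1, in C versus RS3 (0.648% of its genes). In those 4, 0 (C versus AS), 5 (C versus RS3), 5 (AS versus RS3) and 6 (RS3 versus RS7) had an unadjusted p under 0.05, against 10%, 16.3%, 4.61% and 7.52% of all genes. Their summed level was 2489 to 3239 CPM in the C rats, 2488 to 3298 in the AS rats, 2759 to 3836 in the RS3 rats and 3383 to 4286 in the RS7 rats.

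Genes of GABAergic neurons and the prethalamus went the other way in part. Of 7 genes with an identifier (15 listed), 2 correlated negatively with Tcf7l2. They were Lhx5, a LIM-homeobox gene (r = -0.67, adjusted permutation p = 0.00248), and Slc32a1, the vesicular GABA transporter gene (r = -0.56, adjusted permutation p = 0.0498). Gad1 and Gad2, the GABA synthesis genes, had r of -0.09 and -0.28 and did not pass. Without the 2 rats farthest from the median of Tcf7l2 these were -0.45 and -0.47. The summed level of the 7 genes was 602 to 1020 CPM in the C rats, 703 to 1004 in the AS rats, 503 to 693 in the RS3 rats and 488 to 657 in the RS7 rats. EdgeR called 1 of the 7, Gad1, lower in RS7 than in AS (DESeq2 4, limma-voom 6, against 1.67%, 3.9% and 5.36% of all genes), and 0 in the other 5 comparisons. In C versus RS7 all 7 had an unadjusted p under 0.05 (DESeq2 called 6, limma-voom 4, against 2.73% and 1.01% of all genes). In C versus RS3, 6 had such a p (DESeq2 called 1, limma-voom 0, against 0.648% and 0% of all genes). The number was 7 in AS versus RS7, 5 in AS versus RS3 and 0 in C versus AS and RS3 versus RS7. Over all genes the shares with such a p were 17.9%, 16.3%, 16.2%, 4.61%, 10% and 7.52%, in the same order. DESeq2 and limma-voom called 0 of the 7 in the last 3 comparisons.

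Of 13 hypothalamic genes with an identifier (22 listed), 2 correlated negatively, Baiap3, a gene of dense-core vesicle exocytosis (r = -0.70, adjusted permutation p = 0.00268), and Magel2, an imprinted gene of hypothalamic neurons (r = -0.54, adjusted permutation p = 0.0211). Nhlh2, a helix-loop-helix factor gene, correlated positively (r = 0.63, adjusted permutation p = 0.00273). The other 10 did not pass, among them Avp (0.25), Oxt (0.25) and Sim1 (-0.46). The 13 genes summed to 475 to 870 CPM in the C rats, 615 to 919 in the AS rats, 395 to 658 in the RS3 rats and 364 to 499.6 in the RS7 rats, with 0 of the 13 at a count of 0 in any kept rat. EdgeR called 3 of the 13 lower in RS7 than in AS, Baiap3, Magel2 and Ndn (DESeq2 11, limma-voom 11), against 1.67%, 3.9% and 5.36% of all genes. It called 0 in C versus RS7 (DESeq2 8, limma-voom 3), against 0.148%, 2.73% and 1.01% of all genes. All 13 had an unadjusted p under 0.05 there, against 17.9% of all genes. In the other 4 comparisons edgeR, DESeq2 and limma-voom called 0 of the 13, and 0 (C versus AS), 3 (C versus RS3), 6 (AS versus RS3) and 3 (RS3 versus RS7) had such a p, against 10%, 16.3%, 4.61% and 7.52% of all genes. The part of these lists in the group differences of the 7 rows was not tested.

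The glial and vascular lists did not share a direction. Of 4 astrocyte genes, Aqp4, the water channel gene, correlated negatively with Tcf7l2 (r = -0.60, adjusted permutation p = 0.0168), Tnc (0.72) and the glutamate transporter gene Slc1a2 (0.58) positively, and Slc1a3 (-0.45) did not pass. The correlation of Slc1a2 did not pass by Spearman's coefficient. The 3 vessel genes and 2 ependymal genes gave 0 correlations past the test, with r from -0.47 (Cfap300) to 0.27 (Plvap). Summed levels of the astrocyte genes were 1918 to 2311 CPM in the C rats, 1785 to 1967 in the AS rats, 1823 to 1925 in the RS3 rats and 1817 to 2071 in the RS7 rats. In AS versus RS7, where edgeR called 1.67%, DESeq2 3.9% and limma-voom 5.36% of all genes, edgeR called 1 of the 4 astrocyte genes (DESeq2 2, limma-voom 3), Slc1a2, higher by 0.42 on the log2 scale (standard error 0.0784, edgeR adjusted p = 0.00949). It called 1 of the 3 vessel genes (DESeq2 2, limma-voom 2), Plvap, a gene of fenestrated endothelium, at 0.53 (standard error 0.133, edgeR adjusted p = 0.0396). Of the 2 ependymal genes it called 1 (DESeq2 2, limma-voom 2), Daw1, a gene of cilia, at -0.86 (standard error 0.193, edgeR adjusted p = 0.0254). In C versus RS7 edgeR called 0 of these 9 genes (0.148% of all genes), all with an unadjusted p under 0.05 (17.9% of all genes). DESeq2 called 1 astrocyte and 1 vessel gene there (2.73% of its genes) and limma-voom 0 (1.01%). In C versus RS3 DESeq2 also called 1 astrocyte and 1 vessel gene (0.648% of its genes), and edgeR and limma-voom called 0 (0% of all genes for each). All 3 tools called 0 in C versus AS, AS versus RS3 and RS3 versus RS7. Of the 9 genes, 2 (C versus AS), 2 (C versus RS3), 4 (AS versus RS3) and 2 (RS3 versus RS7) had an unadjusted p under 0.05, against 10%, 16.3%, 4.61% and 7.52% of all genes.

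**Figure D5:**
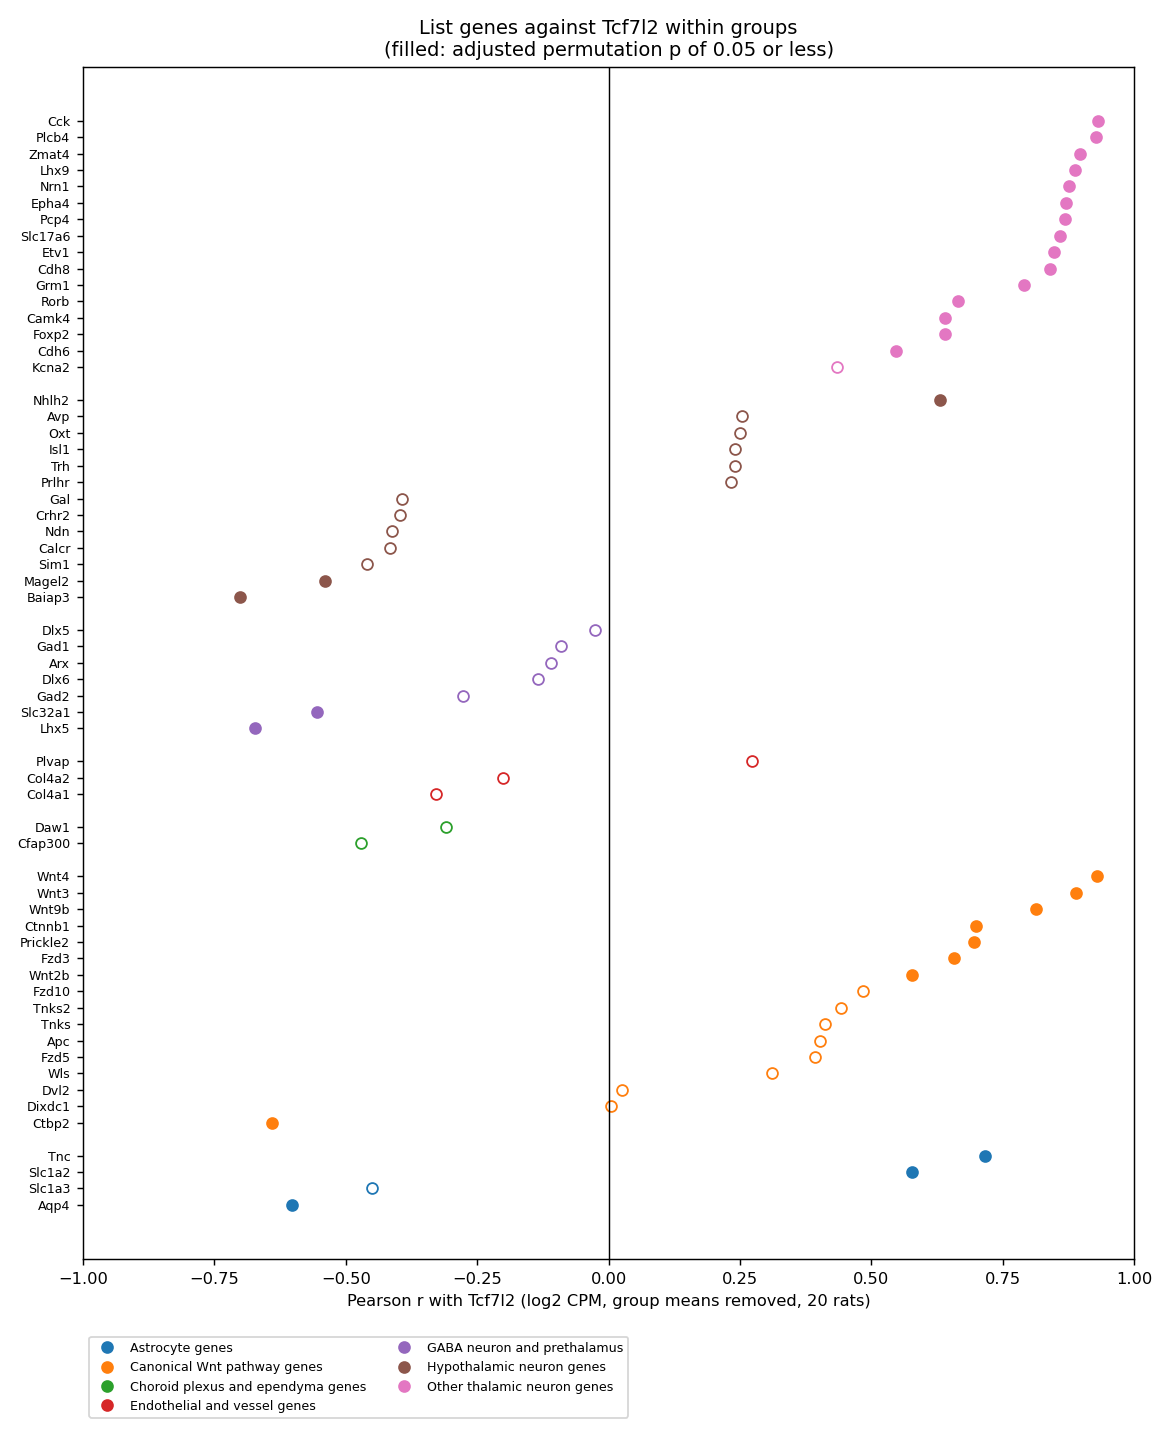
Pearson's r of each list gene with the first Tcf7l2 row over 20 kept rats after removal of group means (horizontal axis), grouped by list, with filled points for an adjusted permutation p of 0.05 or less. The thalamic genes lie to the right, 15 of 16 filled, and the GABA neuron genes lie left of 0, 2 of 7 filled.

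The Wnt pathway was followed through 16 genes other than the members, of 37 listed with Tcf7l2 and Lef1. Among the ligands, Wnt4 (r = 0.93, adjusted permutation p = 0.000542), Wnt3 (0.89, 0.000381), Wnt9b (0.81, 0.000349) and Wnt2b (0.58, 0.0272) correlated positively with Tcf7l2 within groups. Of the receptors, Fzd3 did (0.66, 0.021), whereas Fzd5 (0.39, 0.184) and Fzd10 (0.48, 0.119) did not pass. Ctnnb1, which encodes beta-catenin, the binding partner of Tcf7l2 and Lef1, had r = 0.70 (adjusted permutation p = 0.00459), and Prickle2, a planar polarity gene, had 0.70. Ctbp2, a co-repressor gene, correlated negatively (r = -0.64, adjusted permutation p = 0.0279). Wnt2b and Fzd3 did not pass by Spearman's coefficient. The other 6, Wls, Dvl2, Apc, Dixdc1, Tnks and Tnks2, had r from 0.005 to 0.44 and did not pass.

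Between groups, edgeR called 1 of these 16 Wnt genes in C versus RS7 (DESeq2 12, limma-voom 5), against 0.148%, 2.73% and 1.01% of all genes. It called 3 in AS versus RS7 (DESeq2 9, limma-voom 12), against 1.67%, 3.9% and 5.36% of all genes. EdgeR and limma-voom called 0 in the other 4 comparisons, and DESeq2 called 1, in C versus RS3 (0.648% of its genes). In those 4, 2 (C versus AS), 11 (C versus RS3), 6 (AS versus RS3) and 4 (RS3 versus RS7) had an unadjusted p under 0.05, against 10%, 16.3%, 4.61% and 7.52% of all genes. The receptor gene Fzd5 was called in the RS7 group against C and against AS but not in RS3 versus RS7 (log2 fold change 0.05, edgeR adjusted p = 0.957), at 2.61 ± 0.562 CPM in the AS group and 4.92 ± 0.348 in the RS7 group. Its mean was 2.15 ± 0.927 CPM in the C group and 4.70 ± 0.743 in the RS3 group (C versus RS3 log2 fold change 1.07, standard error 0.198, edgeR adjusted p = 0.18; SD, n = 5). Fzd3 went from 13.4 ± 2.64 CPM in the AS group to 24.3 ± 2.82 in the RS7 group (log2 fold change 0.84, standard error 0.149, edgeR adjusted p = 0.0087). Ctbp2 was lower, at 28.9 ± 2.82 against 23.7 ± 1.56 CPM (-0.29, standard error 0.0707, edgeR adjusted p = 0.0339). The comparisons that called these genes are also those for which the study listed them.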

How the data were processed

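The deposited table holds raw counts of paired reads on 32883 Ensembl genes in 24 rats. Per the submitters' processing notes and the study's methods, the authors trimmed reads with Trimmomatic 0.36, mapped them to rn6 (Rnor_6.0) with HISAT2 2.0.5 and counted them with featureCounts, and they tested counts with DESeq2 in R 4.0.2. The sources used here do not give strandedness or how multi-mapped reads were handled. The table's header has 2 empty cells more than its rows, so columns were matched to rats in the order of the named cells.

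The kept rats were found by recomputing the mean normalized counts that the study lists for 808 genes over 1296 sets with 1 rat left out per group. The set used here matched 808 of 808 (relative tolerance 1e-06) and the next best matched 1. Identifiers that the study's lists print with an extra zero were read without it before this match. No 2 rats of a group had identical counts (60 pairs).

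Genes were filtered with filterByExpr (minimum count 10), scaled by TMM and tested with edgeR 4.0.16 (robust quasi-likelihood test, 4 groups in 1 fit, standard error from the F statistic) in R 4.3.3, with Benjamini-Hochberg adjustment over 16202 genes and a threshold of 0.05. DESeq2 1.42.0, limma-voom with quality weights (limma 3.58.1), DESeq2 size factors, no filter, all 24 rats, only the compared groups, the top-10 gene share as a covariate and leaving out each rat were the alternatives. A fit without the 3 kept rats of highest top-10 share was added after seeing the data. Correlations used log2 CPM (prior count 2) and 100000 permutations of rats within groups, two-sided. CPM rests on counts of 54 or more reads per kept rat for each row.

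Members and lists were chosen with earlier results of these data known. Beyond the 7 rows, the text names the 8 list genes most correlated with Tcf7l2 in each direction, the 5 genes most and 5 least like it, called Wnt genes, and, outside that rule, list genes chosen after their values were seen. Lists had identifiers for under 80% of their genes, and no list test was run. The study's fold changes and p-values were not used.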

Additional observations from a re-analysis of the deposited data

Results flagged for a closer look

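Among 28 groups of 5 kept rats (7 rows in 4 groups), 1 held a rat far from the others by Dixon's criterion (0.71 for 5 values, which chance passes in about 1 in 20 groups). It was RS7 rat 5 for Ntng1, at 382.9 CPM, with a gap to the next rat of 0.765 of the group's range. The same rat was the highest of its group in 6 of the 7 rows.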

How the results depend on the processing

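No paired analysis was possible because the rat numbers 1 to 24 are not shared between groups. In C versus AS, C versus RS3, AS versus RS3 and RS3 versus RS7, 0 rows were called under every alternative run. In C versus RS7, where edgeR called 0, the number was 2 with DESeq2, with limma-voom and with all 24 rats, 1 with only the compared groups, and 0 to 1 with each rat left out. In AS versus RS7, with 1 called, it was 7 with DESeq2 and with limma-voom, 4 with all 24 rats, and 0 to 3 with each rat left out (0 without AS rat 17). Pairs of rows correlated within groups numbered 21 with each rat left out. List genes correlated with Tcf7l2 numbered 18 with all 24 rats against 31, and 25 to 35 with each rat left out.

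Direction turned only for small differences. For C versus AS, the first Tcf7l2 row (0.02) was -0.0287 with limma-voom, -0.000223 with the covariate, -0.0283 without the 3 rats of high share, and -0.0571 to 0.0887 with each rat left out. The second (-0.05) was 0.0862 with the covariate, 0.0161 without those 3 rats and -0.166 to 0.027 with each rat left out. Ntng1 (-0.003) was 0.00277 with no filter and -0.0744 to 0.0737 with each rat left out. For C versus RS3, the second Tcf7l2 row ranged from -0.0231 to 0.122 and Plekhg1 from -0.0272 to 0.155 with each rat left out. The causes were not tested. Rora, with as few as 54 counts in a kept rat, had the largest standard error of the 7 rows in each of the 6 comparisons.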
